A study of Homo sapiens with 3 samples.

Results

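On chromosome 7 of NTERA2 cells, sites bound by the lncRNA SRA are numerous in the first part of the chromosome and almost absent from the rest, while the RNA helicase p68 occupies both. The sites described here are all those on chromosome 7 in the SRA ChIRP-seq list (484 of 7899 sites, 6.13%) and in the p68 ChIP-seq list (1384 of 14131 sites, 9.79%). They were divided at 60 Mb (hg19) by the midpoint of each site. This left 481 SRA sites and 647 p68 sites before 60 Mb, and 3 SRA sites and 737 p68 sites after it. The chromosome and the position of the split were chosen by the counts of SRA sites along it, so the contrast in SRA number is a description and was not tested.

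NTERA2 is a human embryonal carcinoma line with properties of pluripotent stem cells. It was grown in DMEM with serum, with no treatment and no second condition. SRA-bound chromatin was recovered with biotinylated DNA probes against SRA, p68-bound chromatin was recovered with an antibody against p68, and input chromatin was not analysed here. Each assay was made in 3 biological replicates that the authors combined into 1 list of sites without scores, so neither the depth behind a site nor the spread between replicates is known. Intervals given below are 95% intervals for counting error only.

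SRA was first described as an RNA coactivator of steroid hormone receptors, and its gene also gives rise to protein-coding transcripts. p68, the product of DDX5, is a DEAD box RNA helicase that acts in transcription and RNA processing and binds SRA. TrxG complexes deposit H3K4me3, a mark of active promoters, and PRC2 deposits H3K27me3, a mark of silenced genes. Developmental genes of pluripotent cells often carry both marks in so-called bivalent domains. Human chromosome 7 carries such developmental genes on both arms, among them the HOXA cluster on the short arm and SHH on the long arm, and its centromere lies close to 60 Mb, so that the 2 sides are roughly its arms. Genes at single sites are not named, as no annotation of hg19 was used here.

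An SRA site on this chromosome is a stretch of DNA that came down with a pool of 29 oligonucleotides, each 20 nt long. The first, the fifteenth and the last probe of that pool are printed 5′ to 3′ to show what was used as bait. Their GC contents are 50%, 60% and 50%, and no letters are marked.
SRA_1: ggctgatgtcatcacatacc
SRA_15: tctctgatgcggggactctg
SRA_29: tgaggcagcagtttgtttgg

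SRA sites were found in 51 of the 60 windows of 1 Mb before 60 Mb, with a mean of 8.02 ± 8.07 sites per window (SD over windows). They were not spread evenly. The windows richest in SRA were 2 to 3 Mb with 28 sites, 26 to 27 Mb with 28 sites, and 5 to 6 Mb with 25 sites. These windows held 53, 15 and 82 p68 sites, so that the first 2, with the same number of SRA sites, differed in p68 (53 and 15). The first 10 Mb held 142 SRA sites and the next 10 Mb held 12. From 20 to 30 Mb there were 134, followed by 89, 82 and 22 in the successive 10 Mb stretches up to 60 Mb.

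SRA sites ended 4.57 Mb ahead of the split. The last well populated window was 51 to 52 Mb, with 14 SRA sites. A stretch of 2.93 Mb without any SRA site followed, from 52019801 to 54948274, and held 5 p68 sites. The last 3 SRA sites before 60 Mb lay at chr7:55131574-55135059, chr7:55174128-55178132 and chr7:55431509-55433212. The first of these had a p68 site 314 bp away, and the others were 10.1 kb and 39.3 kb from the nearest p68 site. Windows of 500 kb and of 5 Mb placed the end of SRA sites in a window starting at the same 55 Mb.

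p68 did not end with SRA. Between the last SRA site and 57663312 there were 20 p68 sites in 2.23 Mb, which is 8.97 per Mb (exact Poisson interval 5.48 to 13.9). The last p68 site before 60 Mb lay at chr7:57662556-57663312 and the first after it at chr7:63641644-63642652. The 5.98 Mb between them formed the longest stretch of the chromosome without p68. It spans 60 Mb, close to the centromere, and whether reads could be mapped there was not tested. The densities of the 2 sides given below include its length. Beyond this gap p68 sites were frequent again, with 243 in the 12.3 Mb up to the next SRA site, or 19.8 per Mb (17.4 to 22.4). SRA sites were missing from the whole 20.5 Mb between 55433213 and 75920116, in which 263 p68 sites lay.

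**Figure D1:**
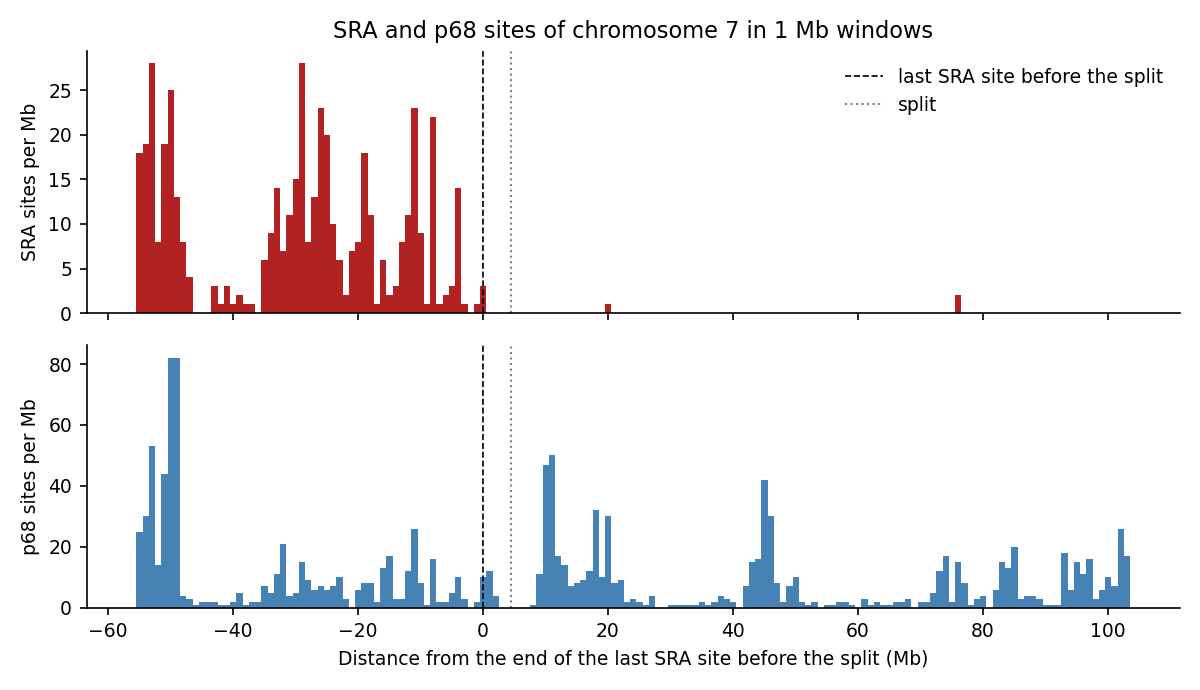
Number of SRA sites (upper panel) and p68 sites (lower panel) in each 1 Mb window of chromosome 7, against the distance in Mb from the end of the last SRA site before the split (dashed line; the dotted line is the split at 60 Mb). SRA windows reach 28 sites before the split and 2 sites after it, whereas p68 windows reach 82 and 50.

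The 3 SRA sites after 60 Mb were far from the others. The first, chr7:75920117-75921758, was 1642 bp wide and overlapped a p68 site by 426 bp. The second, chr7:131286290-131293594, was 7305 bp wide and overlapped a p68 site by 604 bp at its end. The third, chr7:131321886-131324484, was 2599 bp wide, lay 28291 bp from the second and was 5.66 kb from the nearest p68 site. Thus 2 of the 3 were shared with p68, too few for a comparison. Between the first and the second, 55.4 Mb contained 263 p68 sites and no SRA site. Of all 99 windows after 60 Mb, 97 held no SRA site, which the choice of the split largely fixes. Among the 27 of them with at least 10 p68 sites, 25 held none, so the p68-rich windows do not stand out. Before 60 Mb, 9 of all 60 windows held no SRA site. Among the 19 with at least 10 p68 sites, 1 held none. It is the window from 56 to 57 Mb with 12 p68 sites, which lies beyond the last SRA site.

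Widths were not part of the choice of chromosome 7. SRA sites before 60 Mb had a median width of 2726 bp (order-statistic interval 2525 to 2925), compared with 2208 bp (2182 to 2241) for the 7415 SRA sites of other chromosomes. Of the 481 sites, 287 (59.7%) were wider than the median of the SRA list, against 50% of the whole list and 49.4% on other chromosomes. The difference of 10.3 percentage points (Newcombe interval 5.72 to 14.7) passed Fisher's exact test (two-sided, adjusted p = 2.3e-05 over 2 comparisons). Its size depended on chromosome 1, where 68.3% of 2388 SRA sites were wider than the median of the list, more than on chromosome 7. Without chromosome 1 the others stood at 1992 bp and 40.4%, and the difference was 19.3 points. Neighbouring sites are not independent and come from 1 list. This and the following p-values measure counting error as if sites or groups were independent. They are likely too small and do not cover the spread between replicates. The widest SRA sites were chr7:21204811-21216406 (11596 bp), chr7:25789344-25800184 (10841 bp) and chr7:36315859-36325376 (9518 bp). The first 2 were 48.3 kb and 77.0 kb from p68, and the last had a p68 site 158 bp away.

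SRA sites were narrowest at the start of the chromosome, a description that was not tested. In the first 10 Mb, where SRA and p68 were most frequent, their median width was 2030 bp. The 12 sites of the next 10 Mb had 2119 bp. It was 3486 bp from 20 to 30 Mb, 2687 bp from 30 to 40 Mb and 2668 bp from 40 to 50 Mb. Without the first 10 Mb, 66.4% of the remaining 339 SRA sites were wider than the median of the list.

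SRA sites formed small groups. Joining sites with gaps of at most 10 kb left 342 groups before 60 Mb, of which 97 (28.4%, Wilson interval 23.8 to 33.4) held at least 2 sites, against 24.8% of groups in the whole SRA list. The largest groups held 5 sites each. They lay at chr7:2646850-2674260, chr7:5446830-5469795, chr7:37418854-37434768 and chr7:47685987-47713506. p68 sites were found in or within 500 bp of the first (2 sites) and the second (4 sites). The nearest p68 site was 34.6 kb from the third and 5.0 kb from the fourth.

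Among the SRA sites before 60 Mb, 71 (14.8%, Wilson interval 11.9 to 18.2) had a p68 site within 500 bp of their edges, against 11.6% in the whole SRA list and 11.4% (10.7 to 12.1) on other chromosomes. The difference of 3.38 percentage points (0.394 to 6.90) had an adjusted p of 0.027 in Fisher's exact test (two-sided, 2 comparisons). The call depended on the rule for sharing and was lost for overlap (exact p = 0.057), a gap of at most 2 kb (exact p = 0.073), midpoints at most 500 bp apart (exact p = 0.081) and SRA sites joined at 10 kb (exact p = 0.18). On chromosome 1, 379 of 2388 SRA sites (15.9%, 14.5 to 17.4) had p68, no lower a share than on chromosome 7 before 60 Mb. Without chromosome 1 among the others the difference was 5.51 points. It also rested on the start of the chromosome. In the first 10 Mb, 39 of 142 SRA sites (27.5%) had p68. Without that stretch 32 of 339 did (9.44%), which is 1.94 points below other chromosomes (difference -1.94, interval -4.72 to 1.71, exact p = 0.29), so the direction turned. From 20 to 30 Mb, with nearly as many SRA sites as the first 10 Mb, the share was 6.72% (9 of 134).

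The share of SRA sites with p68 did not follow p68 density throughout. p68 stood at 33.8 sites per Mb in the first 10 Mb, and at 9.0 per Mb both from 20 to 30 Mb and from 40 to 50 Mb, where 6.72% and 14.6% (12 of 82) of SRA sites had p68. From 50 to 60 Mb p68 stood at 4.6 per Mb, and 18.2% (4 of 22) of SRA sites had p68. The counts of SRA and p68 sites rose together. In windows of 1 Mb up to the last SRA site, p68 averaged 1.40 ± 0.894 sites (SD over 5 windows) where SRA was missing and 3.53 ± 3.88 (19 windows) where 1 to 4 SRA sites lay. With 5 to 14 SRA sites it averaged 12 ± 17.1 (20 windows), and with 15 or more 26.4 ± 23.3 (12 windows). Over these 56 windows Pearson's r between the counts was 0.59 and Spearman's rho 0.77. These are descriptions, since windows of 1 chromosome share the libraries and lie side by side. The averages and correlations include the crowded first 10 Mb, with 142 SRA and 338 p68 sites, and were not computed without it. From 20 to 30 Mb, 134 SRA sites lay with only 90 p68 sites. The ratio of SRA to p68 sites still varied, from 0.42 in the first 10 Mb to 1.49 from 20 to 30 Mb and 1.41 from 30 to 40 Mb.

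At the sites themselves, midpoints of p68 sites lay beside SRA sites more than within them. A p68 site with its midpoint outside can still overlap SRA. Of the 75 p68 sites before 60 Mb within 500 bp of SRA, 55 overlapped it. p68 midpoints inside SRA sites before 60 Mb numbered 17, or 11.5 per Mb (exact Poisson interval 6.73 to 18.5). In the first 500 bp outside there were 32, or 72.3 per Mb (49.4 to 102). The density fell to 31.6 per Mb from 500 bp to 2 kb, 23.5 per Mb from 2 to 10 kb and 15.9 per Mb (14 to 18.1) from 10 to 50 kb. Overlap was found for 55 SRA sites, by 24 to 1487 bp with a median of 458 bp. The largest was at chr7:2918798-2922185, where a p68 site of 3611 bp covered 1487 bp of an SRA site of 3388 bp. The interval inside SRA sites lies below those of the 3 zones up to 10 kb outside and overlaps that of the zone from 10 to 50 kb. It also includes the 10.8 p68 sites per Mb of the whole side before 60 Mb. The density inside SRA sites was thus not below that of the side. All zones include the first 10 Mb, with 338 of the 647 p68 sites, and were not counted without it.

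**Figure D2:**
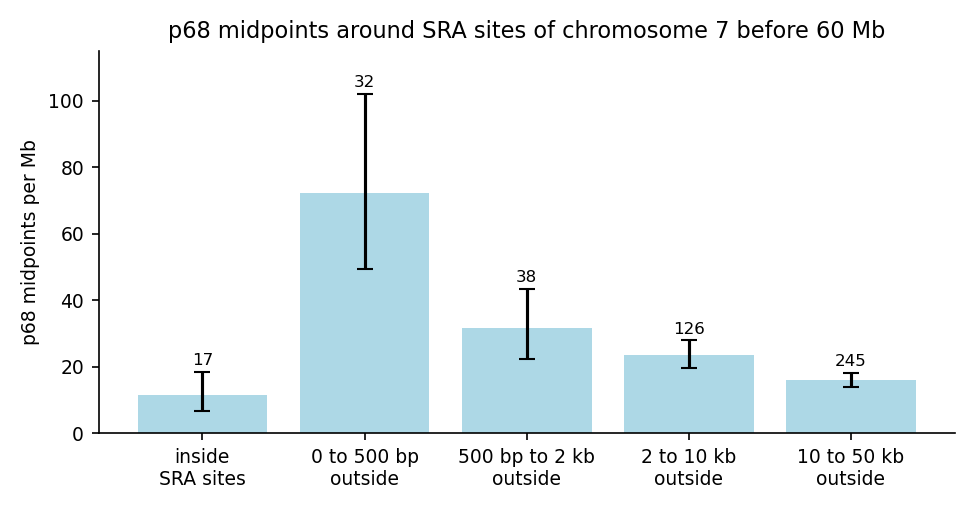
Density of p68 midpoints (per Mb of DNA, bars) inside the 481 SRA sites of chromosome 7 before 60 Mb and in zones outside them. Lines are exact 95% Poisson intervals and numbers are counts of p68 midpoints. The zone of 0 to 500 bp stands at 72.3 per Mb, above every other zone, and the inside at 11.5 per Mb. The whole side before 60 Mb held 10.8 p68 sites per Mb. A p68 site with its midpoint outside can still overlap an SRA site.

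p68 sites with an SRA site within 500 bp made up 75 of the 647 before 60 Mb (11.6%), against 6.55% of the whole p68 list, a count that the abundance of SRA there fixes in part. Their median width was 1250 bp (1132 to 1315), compared with 1366 bp (1304 to 1422) for the 572 others, with intervals that overlap. The nearest SRA site was at most 50 kb away for 461 of the 647 (71.3%), and at most 500 kb away for 619 (95.7%). After 60 Mb the median distance from a p68 site to the nearest SRA site was 9911 kb.

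p68 was denser on the SRA-rich side, a difference that was not seen without the first 10 Mb. There were 10.8 p68 sites per Mb before 60 Mb (exact Poisson interval 9.97 to 11.6) and 7.45 per Mb after it (6.92 to 8.01). Counting groups of sites within 10 kb once gave 402 groups before and 541 after, or 6.70 and 5.47 per Mb. The ratio of 1.23 (exact interval 1.07 to 1.40) passed the exact binomial test (two-sided, adjusted p = 0.0033 over 3 comparisons of the sides). Without the windows from 5 to 7 Mb the ratio was 1.12 (0.974 to 1.28, exact p = 0.11). Without the first 10 Mb it was 0.911 (0.781 to 1.06, exact p = 0.23), an interval that includes 1. Both cuts were chosen after the counts were seen and took from the SRA-rich side only. Without 50 to 70 Mb, a cut that takes from both sides, the ratio was 1.44 (1.25 to 1.65, exact p = 2.8e-07). The mean per window was 10.8 ± 16.7 p68 sites before 60 Mb and 7.44 ± 9.93 after it (SD over 60 and 99 windows), so the spread between windows was larger than the difference between the sides. The medians were 5 and 3.

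The windows from 5 to 6 Mb and from 6 to 7 Mb each held 82 p68 sites, more than any other window of the chromosome. They held 25 and 13 SRA sites. The largest p68 group of chromosome 7, with 20 sites, lay at chr7:6554629-6662998, and SRA lay within 500 bp of it at 2 sites. Groups of 15 and 12 p68 sites, named after their sizes were seen, lay close by at chr7:6340856-6431140 and chr7:5821563-5882226, at 29.1 kb and 76.1 kb from SRA. After 60 Mb the largest group held 9 p68 sites, at chr7:65939303-65982044, and its nearest SRA site was 9938 kb away. The windows from 65 to 66 Mb and 66 to 67 Mb held 47 and 50 p68 sites, and those from 100 to 101 Mb and 101 to 102 Mb held 42 and 30, all without SRA. High p68 density therefore occurred on chromosome 7 both with many SRA sites and with none.

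A difference in p68 clustering between the sides was not shown. Groups of at least 2 p68 sites made up 108 of 402 before 60 Mb (26.9%, Wilson interval 22.8 to 31.4) and 119 of 541 after it (22.0%, 18.7 to 25.7), against 17.9% in the whole p68 list. The difference of 4.87 percentage points (-0.640 to 10.5) missed the threshold (Fisher's exact test, two-sided, adjusted p = 0.090). Counted by single sites, 353 of 647 (54.6%) before 60 Mb and 315 of 737 (42.7%) after it had another p68 site within 10 kb, against 37.9% of the whole list. That difference of 11.8 points had an exact p of 1.2e-05, but it counts every member of the large groups. Groups of 5 or more numbered 16 before 60 Mb, with 131 p68 sites, and 6 after it, with 40. Without the windows from 5 to 7 Mb the shares of groups were 22.3% and 22.0%, and without the first 10 Mb 17.7% and 22.0%, which is a difference of -4.33 points (exact p = 0.19).

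**Figure D3:**
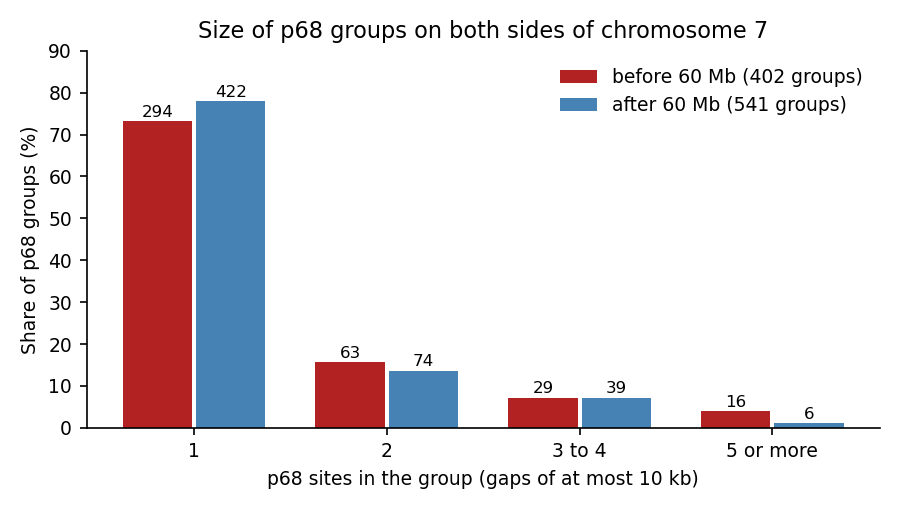
Share of p68 groups (%, vertical axis) by the number of p68 sites in the group (horizontal axis), before and after 60 Mb on chromosome 7. Numbers above the bars are groups. The profiles nearly coincide for 2 to 4 sites, and groups of 5 or more number 16 before and 6 after 60 Mb.

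The width of p68 sites was the difference between the sides that held without the crowded start. Before 60 Mb the median p68 width was 1349 bp (order-statistic interval 1280 to 1400), and after it 1122 bp (1089 to 1178). Of the sites before 60 Mb, 397 of 647 (61.4%) were wider than the median of the whole p68 list, 1185 bp, and after 60 Mb 338 of 737 (45.9%) were, against 50% of the whole list. The difference of 15.5 percentage points (10.3 to 20.6) passed Fisher's exact test (two-sided, adjusted p = 3.0e-08 over 3 comparisons). It was 15.6 points without the first 10 Mb (exact p = 4.0e-06), and 16.2 points without p68 sites near SRA (exact p = 6.1e-09). For p68 sites that stood alone within 10 kb it was 19.4 points (exact p = 3.2e-07).

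The change in p68 width did not fall where SRA ended. All 6 stretches of 10 Mb before 60 Mb had median p68 widths above that of the list, 1185 bp, from 1218 to 1440 bp. Only from 0 to 10 Mb (1256 to 1416) and from 40 to 50 Mb (1193 to 1520) did the interval lie wholly above 1185 bp. From 60 to 70 Mb, where SRA was missing, the median was 1398 bp (1276 to 1569) over 147 p68 sites, as high as on the SRA-rich side. From 70 to 80 Mb it was 1191 bp (1087 to 1290). In the 8 stretches beyond 80 Mb it ranged from 858 to 1130 bp. Some of their intervals include 1185 bp, as from 150 to 160 Mb (1059 to 1234). The p68 sites between the last SRA site and the gap had a median of 1520 bp (1175 to 2127, 20 sites). Those from the gap to the first SRA site after it had 1307 bp (1206 to 1398, 243 sites), with an interval that overlaps the one before 60 Mb. Between the first and the second SRA site after 60 Mb the median was 1039 bp (1004 to 1087, 263 sites). These stretches were chosen after their values were seen and were not tested.

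**Figure D4:**
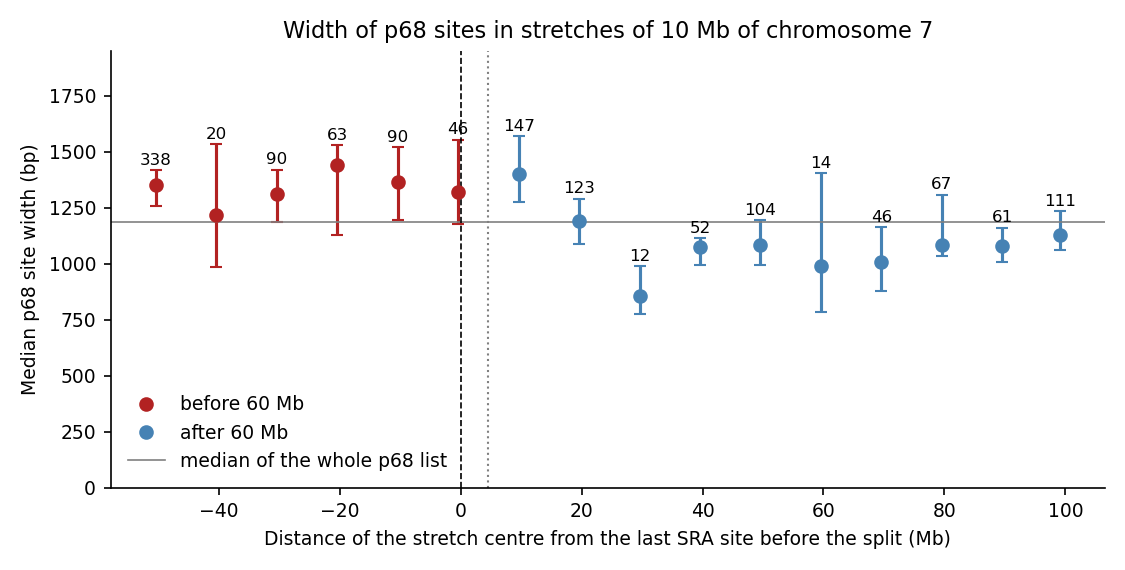
Median width of p68 sites (bp) in stretches of 10 Mb of chromosome 7, against the distance of the centre of each stretch from the last SRA site before the split (dashed line; dotted line, split at 60 Mb). Bars are exact 95% order-statistic intervals, numbers are p68 sites and the horizontal line is the median of the whole p68 list, 1185 bp. The stretch just after the split stands at 1398 bp, level with those before it, and all stretches from 80 Mb on have medians below the line.

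The widest p68 sites also came from both sides of the end of SRA. Before 60 Mb they were chr7:6409306-6415490 (6185 bp), chr7:57545756-57551748 (5993 bp) and chr7:6391842-6397712 (5871 bp). The second of these lies past the last SRA site, 2113 kb from it. After 60 Mb the widest were chr7:66084753-66089234 (4482 bp), chr7:152101184-152105659 (4476 bp) and chr7:65879109-65883560 (4452 bp). All 6 lay more than 500 bp from SRA, the closest at 70.9 kb. Most p68 sites do: only 11.6% of those before 60 Mb and 0.271% of those after it had SRA within 500 bp. The distance therefore does not set the widest sites apart.

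Other chromosomes give a scale for these differences. Chromosomes 16 and 17 have SRA-poor and SRA-rich sides in the opposite order, with 1 and 1045 SRA sites on either side of 40 Mb on chromosome 16, and 10 and 359 on chromosome 17. On chromosome 16 the median p68 width was 1140 bp (1088 to 1179) on the SRA-poor side and 1107 bp (1070 to 1140) on the SRA-rich side. On chromosome 17 it was 970 bp (926 to 1019) and 1001 bp (950 to 1092). In both the intervals overlap, unlike on chromosome 7. The p68 group density was 7.42 per Mb on the SRA-poor and 6.53 per Mb on the SRA-rich side of chromosome 16, and 2.43 and 3.05 per Mb on chromosome 17.

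Dividing 15 other chromosomes at the same 60 Mb gave ratios of median p68 width, before over after, from 0.94 to 1.80 with a median of 1.03. Chromosome 7, at 1.20, was exceeded by 2 of them, chromosome 2 at 1.35 and chromosome 12 at 1.80. Unlike chromosome 7, both have many SRA sites before and after 60 Mb, 190 and 431 on chromosome 2, and 227 and 224 on chromosome 12. For p68 group density the ratios ran from 0.20 to 4.78, and 12 of the 15 were at least as far from 1 as the 1.23 of chromosome 7. The p68 density difference of chromosome 7 was thus small among chromosomes, and its width difference among the larger. Across the other chromosomes, p68 sites in 1 Mb windows with an SRA site had a median width of 1238 bp (1223 to 1252, 9438 sites). Those in windows without SRA had 1059 bp (1037 to 1077, 3309 sites). Chromosomes were pooled here. Chromosome 1, with 728 and 1660 SRA sites before and after 60 Mb, had median p68 widths of 1637 and 1386 bp. Chromosome 6, with 3 and 1 SRA sites, had 967 and 948 bp. Whether the pooled difference holds within chromosomes was not tested. On chromosome 7 before 60 Mb, p68 sites in windows with SRA had a median of 1344 bp (1280 to 1396, 624 sites) and those in windows without SRA 1520 bp (956 to 1764, 23 sites). After 60 Mb the medians were 1251 bp (1114 to 1409, 45 sites) with SRA and 1112 bp (1084 to 1163, 692 sites) without it. Within each side of chromosome 7 these intervals overlap.

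**Figure D5:**
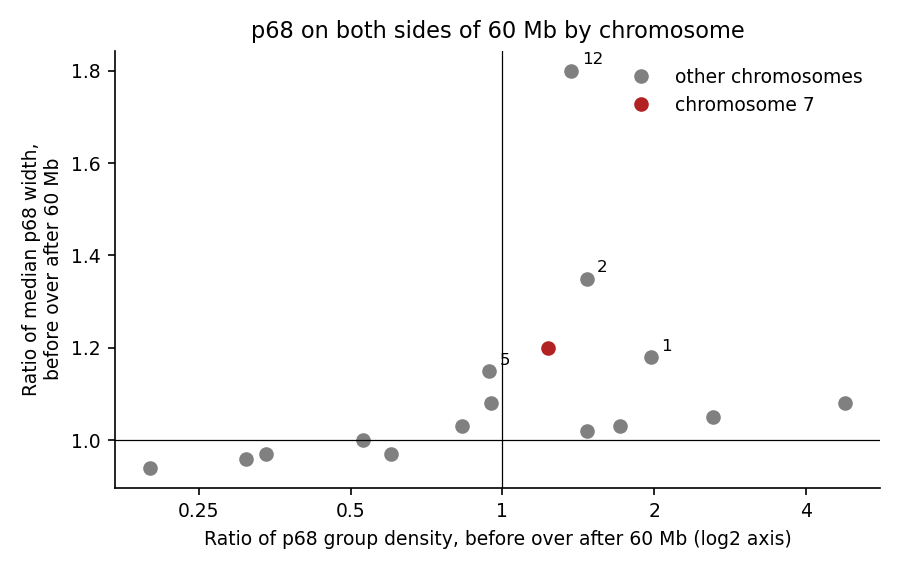
Ratio of median p68 width (vertical axis) against the ratio of p68 group density (horizontal log2 axis), both before over after 60 Mb, for chromosome 7 and 15 other chromosomes with at least 50 p68 sites on each side. Chromosome 7 lies at 1.20 in width and 1.23 in density. Chromosomes with a width ratio above 1.1 are numbered.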

How the data were processed

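The authors recovered SRA-bound (ChIRP-seq) and p68-bound (ChIP-seq) chromatin of NTERA2 in 3 biological replicates each. Per the labels and the study's methods, reads were aligned to hg19 (the submitters' processing notes name CASAVA 1.8.2 and MACS), duplicates and poorly mapped reads were removed, peaks were called per replicate with a looser p-value threshold for SRA than for p68, and the replicate lists were intersected. Sites of LacZ probes were subtracted from SRA only. A site missed in 1 replicate is therefore absent, and numbers of SRA and p68 sites are not on one scale. The deposited lists have 3 columns (chromosome, start, end) and no score, count or depth. Precision is limited to counting error.

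Sites were assigned to windows and sides by midpoint, and the SRA-poor side was taken to end with the last site (158960048). Positions count the first base as 1. Sharing was a gap of at most 500 bp between edges, the distance given in the study's methods. It gave p68 at 11.6% of the whole SRA list, a lower share than the study reports. The reason was not tested. Densities were compared with the exact binomial test and shares with Fisher's exact test, with Benjamini-Hochberg adjustment. Functions were tested on simulated data. The members, groupings and tests were chosen with earlier results of these data known. Sites named singly are the SRA sites after 60 Mb, the last 3 before it, the 3 widest of each list and side, the largest groups and the largest overlap, and the 3 windows richest in SRA are named. Gene tables of another assembly were not used. Python 3.11.15, numpy 2.4.6, pandas 2.3.3, scipy 1.17.1 and matplotlib 3.10.9 were used.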

Additional observations from a re-analysis of the deposited data

How the results depend on the processing

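The wider p68 sites before 60 Mb and the wider SRA sites there kept their direction and passed the test under every alternative run, with differences of 11.2 to 19.4 and 13.2 to 19.3 percentage points. The ratio of p68 group densities, 1.23, was 1.13 (exact p = 0.18) with groups joined at 50 kb, 1.12 without the windows from 5 to 7 Mb and 0.911 without the first 10 Mb, and passed the test in the other 5 alternatives (1.18 to 1.45). The difference in p68 clustering, 4.87 points, passed at 2 kb (4.78) and for single sites (11.8), and was -1.52 at 50 kb and -4.33 without the first 10 Mb. The difference in sharing, 3.38 points, missed the threshold for overlap (2.66), a gap of at most 2 kb (3.17), midpoints at most 500 bp apart (0.794) and SRA sites joined at 10 kb (2.65), and was -1.94 without the first 10 Mb. It was 5.51 without chromosome 1 among the other chromosomes. The cause of these changes was not tested. The alternatives without the first 10 Mb or without 5 to 7 Mb were chosen after seeing the data. No paired analysis was possible because each assay has 1 list without replicate columns, and for the same reason no replicate was left out in turn.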
